A study of Homo sapiens with 18 samples.

Results

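The E2F family of transcription factors was followed by RNA sequencing in the human lung cancer lines H460, H2023 and ABC-1, treated for 24 h with CCS1477 or with DMSO. The 10 genes described are the activators E2F1, E2F2 and E2F3, the repressors E2F4, E2F5, E2F6, E2F7 and E2F8, the DP partner TFDP1 and the pocket protein gene RBL1. They were chosen by name, with earlier results of these data known, and are 10 of the 20374 genes with a gene row in at least 1 of the 3 deposited tables. All 10 had a row in every table and passed the filter on low values in every line. CCS1477 binds the bromodomain shared by the acetyltransferases EP300 and CREBBP, which act as transcriptional coactivators. Treated cells of each line received CCS1477 at 5 µM in the sample descriptions (the series text gives 5 mM), and DMSO cells are the solvent controls. H460 is labelled a large cell carcinoma line and H2023 a squamous line, and the series describes both as NRF2-activated. ABC-1, an adenocarcinoma line, is described as wildtype in that respect. Each of the 6 groups had 3 libraries. Whether these came from separate cultures is not stated, so p-values measure the spread between libraries, which may be technical. Each line is a single established line, so a difference between lines is a difference between these lines.

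E2F proteins bind DNA as dimers with a DP protein and control genes needed for entry into S phase. In quiescent and early G1 cells the pocket proteins encoded by RB1, RBL1 and RBL2 hold them in check, and phosphorylation of the pocket proteins by cyclin-dependent kinases releases them. E2F1, E2F2 and E2F3 are classed as activators, E2F4 and E2F5 as repressors that work with RBL1 and RBL2, E2F6 as a repressor within a Polycomb complex, and E2F7 and E2F8 as atypical repressors that bind DNA without a DP partner. Several of these genes, E2F1 among them, are themselves E2F targets.

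The libraries held 26652298 to 33568182 reads in H460, 15352631 to 18261159 in H2023 and 14483979 to 17483292 in ABC-1. CCS1477 replicate 1 of H460 stood apart. Mitochondrial genes held 0.795% of its reads, and 1.77 to 2.06% in the remaining libraries of that line. Its differences from its own replicates gave a chi-square per gene of 33.0 and 36.3, against 2.26 to 7.10 for all other pairs of replicates. Without it, each of the 10 genes kept its call and its sign in H460. Epithelial markers were present in all lines, and their summed level moved with treatment, at 2793 to 3629 CPM in CCS1477 and 2472 to 2520 CPM in DMSO libraries of H460, 4473 to 4536 and 5452 to 5584 CPM in H2023, and 8179 to 8227 and 5897 to 6359 CPM in ABC-1. Of 5 squamous markers 1 had a row in H2023, with summed levels of 0.242 to 0.586 CPM in CCS1477 and 1.36 to 2.14 CPM in DMSO libraries. In H460, labelled large cell, 3 of the 5 had a row, with sums of 1.44 to 2.89 and 1.94 to 8.03 CPM. In ABC-1, 1 had a row, at 0 to 0.355 and 1.04 to 1.92 CPM. Of 4 adenocarcinoma markers 1 had a row in ABC-1, at up to 1.66 CPM. Among markers of other cell types, the 1 fibroblast marker with a row in ABC-1, COL1A1, was at 22.6 to 23.6 CPM with CCS1477 and 6.84 to 8.03 CPM with DMSO, and leukocyte markers in H2023 summed to 16.8 to 17.0 and 25.0 to 29.5 CPM. The 1 leukocyte marker with a row in H460 was at 14.5 to 14.9 and 14.3 to 14.6 CPM. The part of these shifts in the E2F results was not tested.

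The promoters of these genes were searched for E2F letters. RefSeq promoter windows (GRCh38.p14), from 250 bases before to 50 after the annotated start, were found for 8 of the 10 genes, with 2 windows for E2F3. The search covered both strands, for the E2F letters TTTCCCGC, TTTCGCGC, TTTGCCGC and TTTGGCGC, for the CHR letters TTTGAA and for CCAAT. E2F letters occurred in 5 of these 9 windows, against 3.31% of 35116 promoters of the same length. CHR letters occurred in 1 of the 9 windows and in 15.2% of all promoters, and CCAAT in 3 windows and in 34.6% of all promoters. No letters of different motifs overlapped in the 9 windows. The bases from −150 to −1 of 4 windows are shown 5′ to 3′ on the strand of the gene, with E2F letters in capitals. E2F1, E2F2 and RBL1 are shown because they carry the letters close to the start, and E2F7 because its window had none. All 4 genes lie on the minus strand.
E2F1, chr20:33686386-33686535: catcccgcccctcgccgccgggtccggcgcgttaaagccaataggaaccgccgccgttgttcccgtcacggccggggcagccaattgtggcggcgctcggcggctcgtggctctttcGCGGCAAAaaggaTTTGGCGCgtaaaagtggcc
E2F2, chr1:23531234-23531383: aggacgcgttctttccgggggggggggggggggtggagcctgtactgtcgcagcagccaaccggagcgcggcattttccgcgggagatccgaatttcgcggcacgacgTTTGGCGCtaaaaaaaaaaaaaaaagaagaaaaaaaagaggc
RBL1, chr20:37095998-37096147: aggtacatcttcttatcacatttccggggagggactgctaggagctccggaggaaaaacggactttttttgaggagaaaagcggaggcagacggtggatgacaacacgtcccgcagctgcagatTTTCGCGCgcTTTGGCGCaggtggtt
E2F7, chr12:77065570-77065719: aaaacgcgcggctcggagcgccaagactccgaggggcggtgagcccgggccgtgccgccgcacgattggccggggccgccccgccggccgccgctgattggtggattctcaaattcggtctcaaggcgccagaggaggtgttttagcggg

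E2F1 had a pair of matches, at −33 to −26 on the opposite strand and at −20 to −13. RBL1 also had a pair, at −26 to −19 and −16 to −9. E2F2 had 1 match, at −42 to −35, TFDP1 had 1 at −120 to −113, and E2F3 had 1 at −53 to −46 of its upstream start. The windows of E2F4, E2F6 and E2F7 and the downstream start of E2F3 had none of the 4 E2F spellings. Other spellings, such as those with a final G, were not searched. The 4 CCAAT matches of E2F7 lay between −229 and −50. A match is a run of letters and was not tested as a binding site. E2F5 and E2F8 were not searched.

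**Figure D1:**
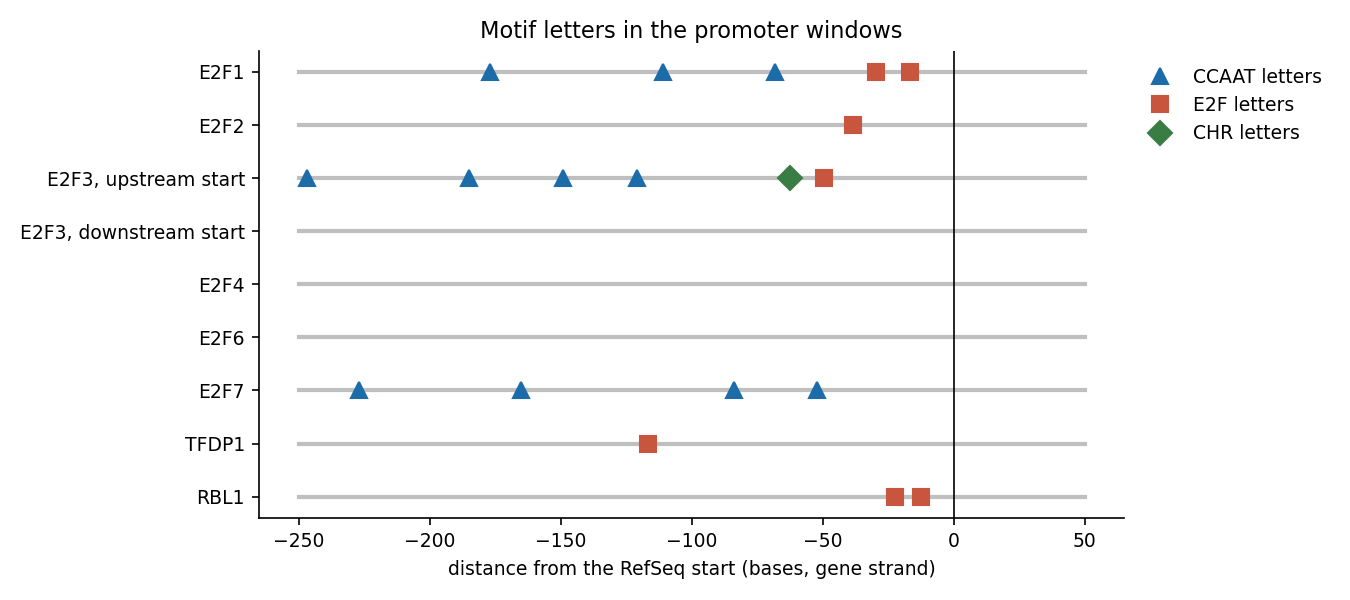
Positions of E2F (squares), CCAAT (triangles) and CHR letters (diamonds) in 9 promoter windows of 8 genes; the x axis is the distance in bases from the RefSeq start on the strand of the gene. All E2F letters lie upstream of the start, and those of E2F1, E2F2 and RBL1 lie within 42 bases of it.

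Most of the family fell with CCS1477 in each line. E2F2, E2F3, E2F4, E2F8, TFDP1 and RBL1 fell in all 3 lines. E2F1 and E2F7 fell in H2023 and ABC-1, and E2F5 fell in ABC-1. E2F7 rose in H460, by a small amount that depended on the setting, and E2F6 passed the threshold in no line on its gene rows. With transcript rows added it passed in all 3, lower in H460 and H2023 and higher in ABC-1. The H460 fall then drew on a transcript row that varied widely between libraries. Each gene was tested with limma-trend on the deposited log2 values within each line, 3 CCS1477 against 3 DMSO libraries, with p-values adjusted over all genes tested. In H460, 6 of the 10 genes fell and 1 rose at an adjusted p under 0.05, where 27.9% of the 13516 genes tested fell and 28.2% rose. In H2023, 8 fell and 0 rose, against 31.9% and 28.6% of 14572 genes. There, 0 rose at an unadjusted p under 0.05 as well, and 0 with limma-voom. In ABC-1, 9 fell and 0 rose, against 32.6% and 33.5% of 13543 genes. At an unadjusted p under 0.05, 1 rose in ABC-1 in limma-trend (E2F6). At the adjusted threshold 0 did with limma-voom, and 1, E2F6, did with scaling by library totals, with 1 CPM asked of all libraries, with the replicate block and with transcript rows added. The median log2 change over the 10 genes was −0.26, −0.52 and −0.84 in the lines H460, H2023 and ABC-1, beside 0.000917, −0.01 and 0.01 over all genes tested. The 3 CCS1477 libraries lay below the 3 DMSO libraries without overlap for 6 of the 10 genes in H460, where 31.7% of all genes tested did so. In H2023 this held for 8 genes (34.0% of all genes) and in ABC-1 for 9 (34.6%). In H460, 2 genes lay above without overlap in CPM, E2F1 and E2F7. In H2023 and ABC-1, 0 did. The share of all genes that lay above was 32.3%, 31.2% and 35.8% in H460, H2023 and ABC-1. All these counts of the 10 genes are in CPM, while the shares over all genes are on the deposited log2 values. On the deposited scale the groups of E2F1 overlapped in H460.

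**Figure D2:**
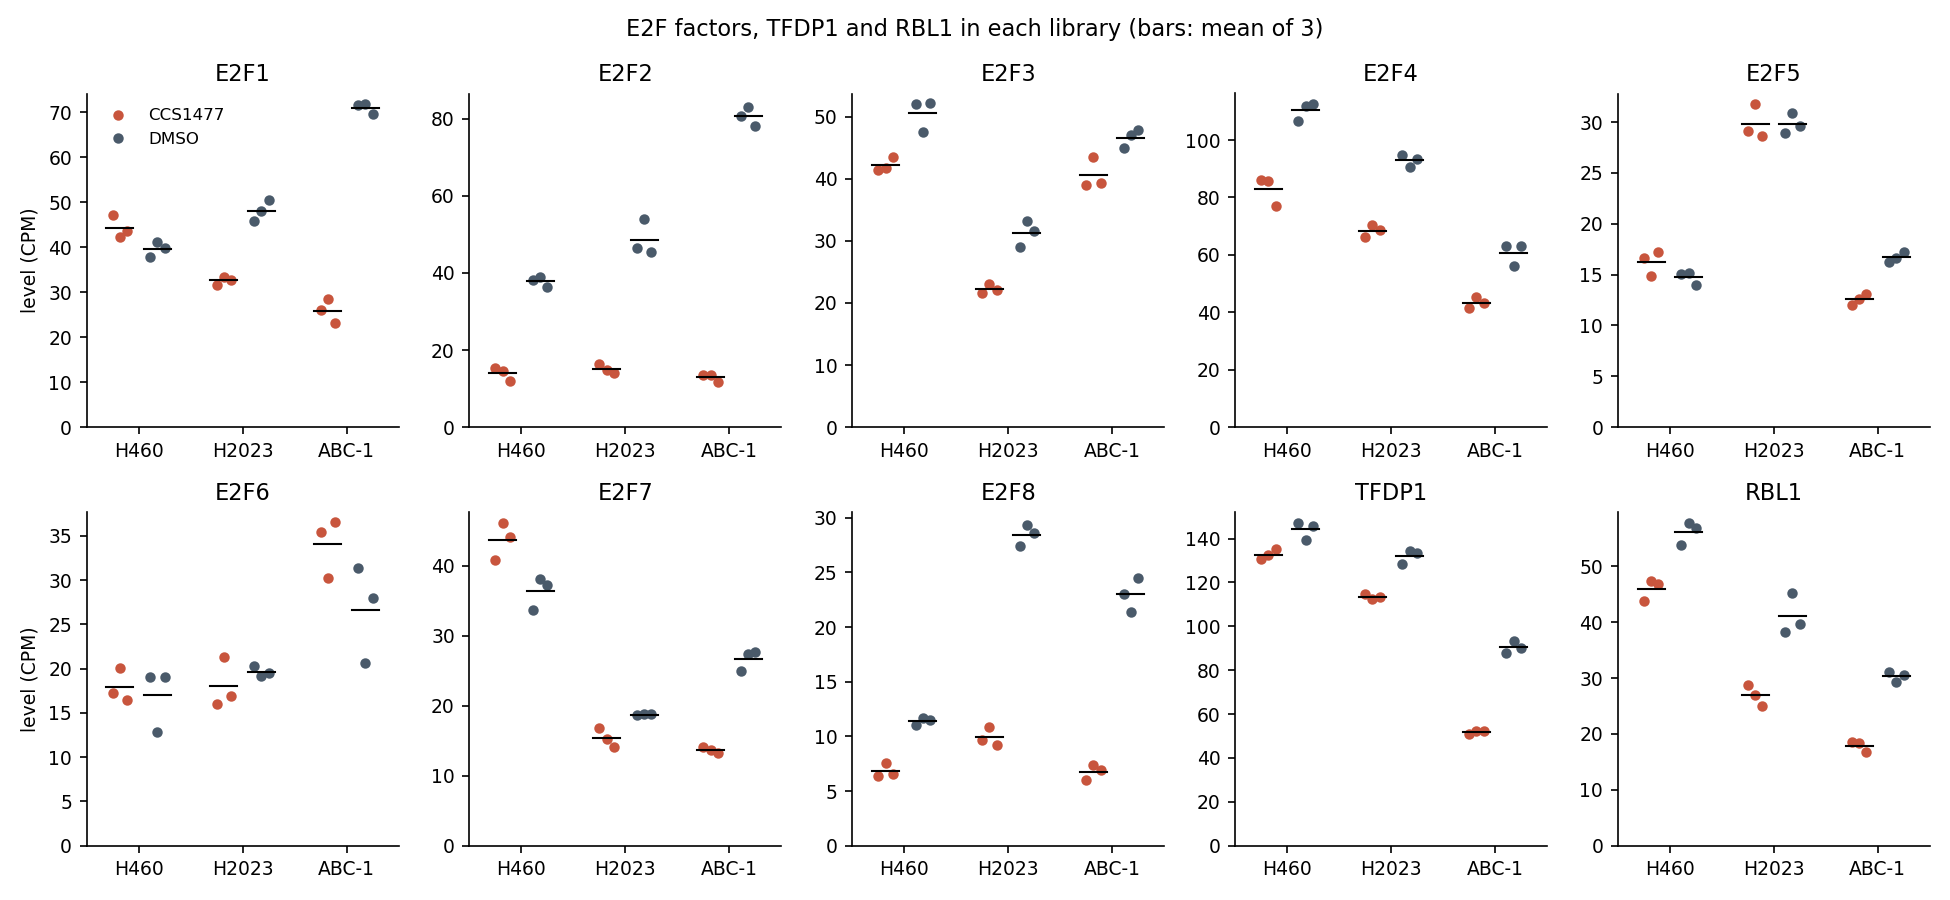
Level in CPM (y axis, from 0) of each of the 10 genes in every library of H460, H2023 and ABC-1, with CCS1477 libraries left of DMSO libraries; bars are means of 3. E2F2 libraries with CCS1477 lie between 11.6 and 16.5 CPM in all lines, below all DMSO libraries, while the groups of E2F6 overlap in each line.

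**Figure D3:**
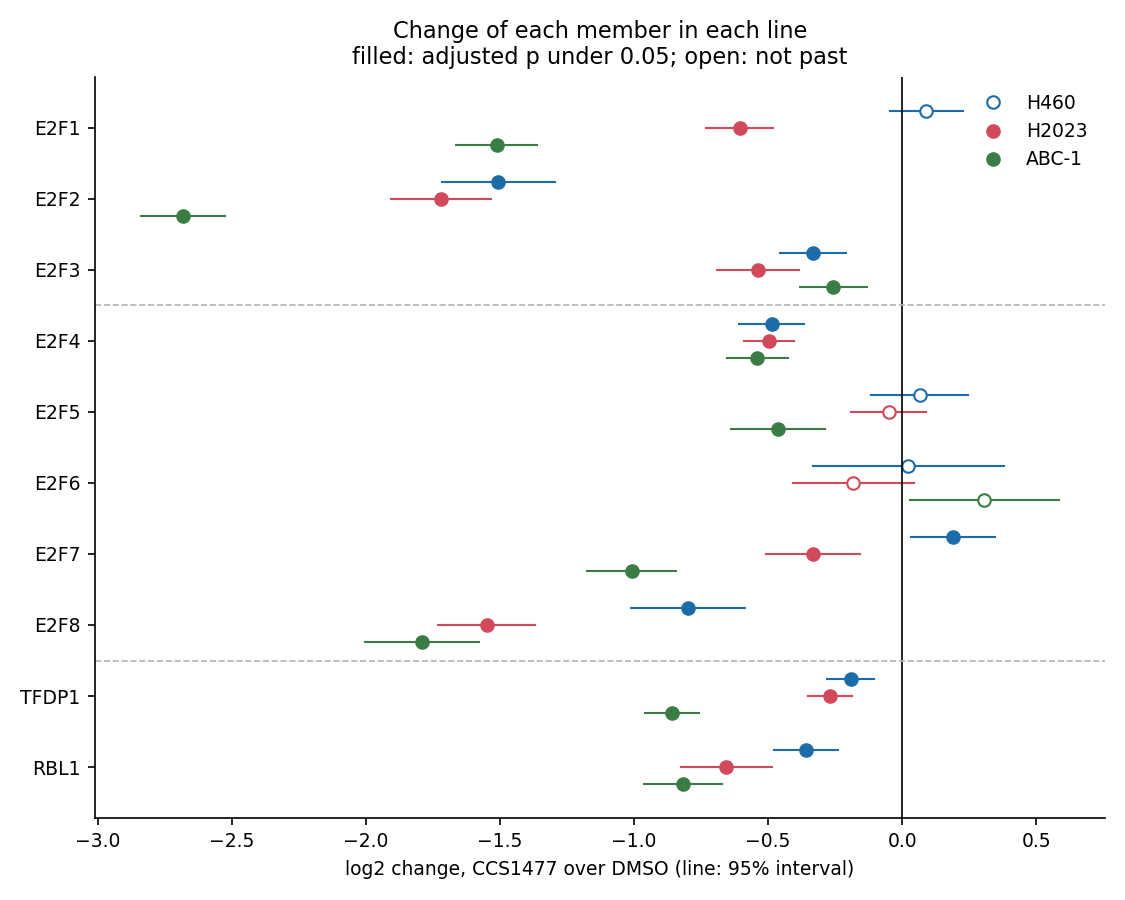
Log2 change with CCS1477 over DMSO (x axis) of each gene in each line, with its 95% interval; filled points have an adjusted p under 0.05 and dashed lines separate activators, repressors and partners. E2F2 has the lowest value in each line (−1.51, −1.72 and −2.68), and E2F1 runs from 0.09 in H460 to −1.51 in ABC-1.

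Levels are given as CPM, recovered reads scaled to the same total of reads over all rows in each library. The log2 changes are those of the deposited, separately scaled values with a constant of 4, so a ratio of CPM can differ from them. Scaling by library totals put the median of all genes at 0.07, 0.04 and 0.07 on the log2 scale in H460, H2023 and ABC-1. In bulk RNA, fewer cells in a phase of the cell cycle and less RNA per cell cannot be told apart.

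E2F2 (ENSG00000007968, chromosome 1, 23506430 to 23531220 on GRCh38), an activator of S-phase genes, had the largest fall of the 10 in every line. In H460 it had 15.3, 14.6 and 12.0 CPM in CCS1477 libraries, against 38.2, 38.8 and 36.3 CPM in DMSO libraries (log2 change −1.51 ± 0.09 SE, adjusted p = 6.86e-06). In H2023 it had 16.5, 14.8 and 14.0 CPM with CCS1477, against 46.5, 53.9 and 45.3 CPM with DMSO (−1.72 ± 0.08, adjusted p = 3.96e-08). The groups stood far apart in both lines. In ABC-1, where the DMSO level was highest, it had 13.5, 13.6 and 11.6 CPM with CCS1477, against 80.6, 82.9 and 78.1 CPM with DMSO (−2.68 ± 0.07, adjusted p = 1.43e-10). The treated cells of the 3 lines thus averaged 14.0 ± 1.76, 15.1 ± 1.26 and 12.9 ± 1.12 CPM (SD, n = 3 each) in H460, H2023 and ABC-1, beside DMSO levels of 37.8 ± 1.34, 48.6 ± 4.65 and 80.6 ± 2.42 CPM. Ordered from the lowest change, E2F2 was at place 248 of 13516 genes in H460, 198 of 14572 in H2023 and 77 of 13543 in ABC-1.

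E2F1 (ENSG00000101412, chromosome 20, 33675683 to 33686404), the best known activator and a gene that can also drive apoptosis, split the lines. In H460 it had 47.2, 42.3 and 43.5 CPM with CCS1477 and 37.8, 41.0 and 39.8 CPM with DMSO. In CPM these groups did not overlap, but on the deposited scale they did. The log2 change of 0.09 missed the threshold (95% interval −0.05 to 0.22, adjusted p = 0.225). With scaling by library totals it passed, at 0.16 (adjusted p = 0.0416). In H2023 it fell to 31.7, 33.4 and 32.8 CPM with CCS1477, against 45.7, 47.9 and 50.6 CPM with DMSO (−0.61 ± 0.06, adjusted p = 4.49e-06). In ABC-1 it fell to 26.0, 28.4 and 23.1 CPM, against 71.7, 71.7 and 69.6 CPM with DMSO (−1.51 ± 0.07, adjusted p = 6.79e-09). In CPM, treated and control libraries were thus separate in all lines, with the treated ones above in H460 and below in H2023 and ABC-1.

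E2F3 (ENSG00000112242, chromosome 6, 20401906 to 20493715), the third activator, fell by less and by a more even amount. It averaged 42.2 ± 1.19 CPM with CCS1477 and 50.6 ± 2.69 CPM with DMSO in H460 (−0.33 ± 0.05, adjusted p = 0.00104). In H2023 it averaged 22.2 ± 0.681 and 31.3 ± 2.14 CPM (−0.54 ± 0.07, adjusted p = 5.56e-05). In ABC-1 it averaged 40.6 ± 2.50 and 46.6 ± 1.54 CPM (−0.26 ± 0.06, adjusted p = 0.00181). The groups did not overlap in any line. A processed pseudogene copy, E2F3P2, had a row of its own with 57 to 98 reads over the 6 libraries of a line.

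E2F4 (ENSG00000205250, chromosome 16, 67192169 to 67198918), the main repressor partner of the pocket proteins RBL1 and RBL2, fell by nearly the same amount in all lines. It had 86.1, 85.8 and 77.0 CPM with CCS1477 in H460, against 107, 112 and 113 CPM with DMSO (−0.49 ± 0.05, adjusted p = 1.31e-04). In H2023 it had 66.2, 70.3 and 68.5 CPM with CCS1477, against 94.9, 90.7 and 93.5 CPM with DMSO (−0.50 ± 0.04, adjusted p = 2.12e-06). In ABC-1 it had 41.6, 45.2 and 43.3 CPM with CCS1477, against 62.9, 56.0 and 63.1 CPM with DMSO (−0.54 ± 0.05, adjusted p = 3.16e-06). No library of one group reached into the other.

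E2F5 (ENSG00000133740, chromosome 8, 85177225 to 85217158), the other pocket-protein-bound repressor, passed the threshold in ABC-1, where it fell to 12.0, 12.6 and 13.1 CPM with CCS1477, against 16.2, 16.6 and 17.3 CPM with DMSO (−0.46 ± 0.08, adjusted p = 3.14e-04). It averaged 16.2 ± 1.19 and 14.7 ± 0.683 CPM in H460 (log2 change 0.06, 95% interval −0.12 to 0.24, adjusted p = 0.508). In H2023 it averaged 29.8 ± 1.72 with CCS1477 and 29.8 ± 0.994 CPM with DMSO (−0.05, 95% interval −0.19 to 0.09, adjusted p = 0.514). In both lines the groups overlapped. E2F5 shares 3083 bases with RBIS on the opposite strand, and the use of strand in counting is not given in the sources used here, so reads of the pair may be mixed.

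E2F6 (ENSG00000169016, chromosome 2, 11444375 to 11466177) lacks the pocket-protein binding region and represses within the PRC1.6 complex. Its gene rows varied widely between replicates, except in the DMSO libraries of H2023. It had 17.2, 20.03 and 16.5 CPM with CCS1477 in H460 and 19.1, 12.8 and 19.1 CPM with DMSO (log2 change 0.02 ± 0.15, adjusted p = 0.916). In H2023 it had 16.0, 21.3 and 16.9 CPM with CCS1477 and 20.3, 19.2 and 19.5 CPM with DMSO (−0.18 ± 0.10, adjusted p = 0.145). In ABC-1 it had 35.4, 30.2 and 36.5 CPM with CCS1477 and 31.4, 20.6 and 28.0 CPM with DMSO (0.31 ± 0.13, adjusted p = 0.0511). All 3 pairs of groups overlapped. The tables also list transcripts of E2F6 in rows of their own, which held 45.8 to 52.9% of its reads in a line, most of them from transcripts annotated as targets of nonsense-mediated decay. For the 9 other genes that share was 0 to 12.2%.

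With these transcript rows added, the replicates of E2F6 drew together in every group but DMSO of H2023, and all 3 lines passed the threshold. In H460 it then had 29.5, 31.0 and 31.4 CPM with CCS1477, against 34.1, 33.3 and 34.9 CPM with DMSO (−0.23, adjusted p = 0.00342). In H2023 it had 36.5, 41.7 and 34.5 CPM with CCS1477 and 42.8, 38.8 and 40.2 CPM with DMSO (−0.17, adjusted p = 0.0388), and the groups still overlapped. In ABC-1 it had 68.6, 68.5 and 70.2 CPM with CCS1477, against 59.4, 57.4 and 63.2 CPM with DMSO (0.14, adjusted p = 0.00672). In H460 the row of transcript ENST00000444832.5 held 77, 190 and 116 reads in DMSO libraries and 82, 0 and 0 in CCS1477 libraries. The H460 change without this row was not tested. The sign in H460 is the reverse of that from gene rows alone. In ABC-1 it is the same, and there E2F6 also passed on gene rows without DMSO replicate 1 (0.43, adjusted p = 0.0123) or without CCS1477 replicate 2 (0.40, adjusted p = 0.0216). The 4 annotated pseudogene copies of E2F6 had no row.

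E2F8 (ENSG00000129173, chromosome 11, 19224063 to 19241620), an atypical repressor that peaks in S phase, had the second lowest change of the 10 in every line. In H460 it fell to 6.38, 7.61 and 6.56 CPM with CCS1477, against 11.0, 11.6 and 11.5 CPM with DMSO (−0.80 ± 0.09, adjusted p = 1.78e-04). In H2023 it fell to 9.71, 10.9 and 9.21 CPM, against 27.4, 29.4 and 28.6 CPM (−1.55 ± 0.08, adjusted p = 6.76e-08). In ABC-1 it fell to 6.01, 7.34 and 6.89 CPM, against 23.1, 21.4 and 24.5 CPM (−1.79 ± 0.10, adjusted p = 2.64e-08). No groups overlapped. The antisense gene CSRP3-AS1 spans E2F8 on the opposite strand and had no row.

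E2F7 (ENSG00000165891, chromosome 12, 77021247 to 77065580), the other atypical repressor and also a known target of p53, had, like E2F1, a positive change in H460 and its lowest change in ABC-1. In ABC-1 it fell to 14.1, 13.7 and 13.2 CPM with CCS1477, against 25.0, 27.4 and 27.7 CPM with DMSO (−1.01 ± 0.08, adjusted p = 4.09e-07). In H2023 it fell to 16.9, 15.2 and 14.1 CPM, against 18.6, 18.8 and 18.8 CPM (−0.33 ± 0.08, adjusted p = 0.00388). In H460 it had 40.8, 46.1 and 44.1 CPM with CCS1477, against 33.7, 38.1 and 37.3 CPM with DMSO (0.19 ± 0.07, adjusted p = 0.0430). The treated libraries of H460 all lay above the controls, but the call was fragile. It ended with scaling by relative log expression (0.18, adjusted p = 0.0585), with limma-voom (0.18, adjusted p = 0.0676) and when low values were not filtered (0.19, adjusted p = 0.0529). It also ended without DMSO replicate 1 (0.13, adjusted p = 0.140), DMSO replicate 3 (0.21, adjusted p = 0.0721), CCS1477 replicate 2 (0.15, adjusted p = 0.136) or CCS1477 replicate 3 (0.18, adjusted p = 0.0985). The call held in 9 of 16 alternatives, among them the fit without CCS1477 replicate 1 (0.24, adjusted p = 0.0114).

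TFDP1 (ENSG00000198176, chromosome 13, 113584721 to 113641470) encodes the DP subunit with which E2F1 to E2F6 bind DNA. It fell to 131, 132 and 135 CPM with CCS1477 in H460, against 147, 139 and 146 CPM with DMSO (−0.19 ± 0.04, adjusted p = 0.00327). In H2023 it fell to 115, 112 and 114 CPM, against 128, 134 and 133 CPM (−0.27 ± 0.04, adjusted p = 9.57e-05). In ABC-1 it fell to 50.9, 52.3 and 52.3 CPM, against 87.8, 93.1 and 90.2 CPM (−0.86 ± 0.05, adjusted p = 2.41e-08). The groups were separate in each line, and widest apart in ABC-1.

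RBL1 (ENSG00000080839, chromosome 20, 36996349 to 37095995) encodes the pocket protein that binds E2F4 and E2F5 and is itself an E2F target. It fell to 43.9, 47.4 and 46.8 CPM with CCS1477 in H460, against 53.9, 57.7 and 56.8 CPM with DMSO (−0.36 ± 0.05, adjusted p = 5.78e-04). In H2023 it fell to 28.8, 27.0 and 25.0 CPM, against 38.3, 45.2 and 39.7 CPM (−0.66 ± 0.08, adjusted p = 2.75e-05). In ABC-1 it fell to 18.5, 18.3 and 16.7 CPM, against 31.1, 29.4 and 30.6 CPM (−0.82 ± 0.07, adjusted p = 7.33e-07). No groups overlapped. Set beside the promoter letters, the 5 genes with E2F letters in a window had log2 changes in H460 from −1.51 (E2F2) to 0.09 (E2F1), and the 3 genes with none from −0.49 (E2F4) to 0.19 (E2F7). In H2023 they ran from −1.72 (E2F2) to −0.27 (TFDP1) with letters and from −0.50 (E2F4) to −0.18 (E2F6) without. In ABC-1 they ran from −2.68 (E2F2) to −0.26 (E2F3) with letters and from −1.01 (E2F7) to 0.31 (E2F6) without. The ranges overlapped in each line.

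Activators were compared with repressors in each line as medians of their log2 changes, without a test, since 3 and 5 genes are not replicates. In H460 the median was −0.33 for the activators and 0.02 for the repressors, a difference of −0.35. That repressor median was the gene-row change of E2F6 (0.02 ± 0.15 SE), a gene whose sign there depended on the setting. The H460 repressors ran from −0.80 for E2F8 to 0.19 for E2F7, and E2F4 and E2F8 fell. In H2023 it was −0.61 and −0.33, a difference of −0.27. In ABC-1 it was −1.51 and −0.54, a difference of −0.97. Both classes were wide. In ABC-1 activators ran from −2.68 for E2F2 to −0.26 for E2F3, and repressors from −1.79 for E2F8 to 0.31 for E2F6, so that the change of E2F8 was lower than those of E2F1 and E2F3. Adding transcript rows moved the difference to −0.10 in H460 and −0.18 in H2023.

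Levels of different genes were compared as RPKM, which is CPM divided by the exon length in kilobases. In ABC-1 the summed RPKM of E2F1, E2F2 and E2F3 was 20.6 ± 1.64 with CCS1477 and 52.1 ± 0.775 with DMSO, and that of the 5 repressors was 26.4 ± 0.556 and 36.1 ± 2.66 (SD, n = 3 each). The activators thus made up 43.7 ± 2.39% of the summed RPKM of the 8 E2F genes with CCS1477 and 59.1 ± 2.14% with DMSO. In H2023 their share was 37.6 ± 0.719% with CCS1477 and 42.8 ± 1.30% with DMSO. In H460 it was 42.3 ± 1.48% with CCS1477 and 41.4 ± 0.439% with DMSO, and the libraries overlapped. The share of E2F2 alone was lower with CCS1477 in every line, at 3.80 ± 0.371% against 8.82 ± 0.429% in H460, 5.18 ± 0.527% against 11.1 ± 0.976% in H2023 and 5.03 ± 0.367% against 16.7 ± 0.840% in ABC-1. The share of E2F4 was lower with CCS1477 in H460, at 34.4 ± 1.16% against 39.3 ± 0.616%. It was higher with CCS1477 in H2023, at 35.7 ± 0.657% against 32.5 ± 1.24%, and in ABC-1, at 25.8 ± 0.681% against 19.2 ± 0.863%. These shares were not tested, and they rest on gene rows. With transcript rows added, a setting chosen after seeing the data, the activators made up 36.0 ± 1.74% with CCS1477 and 53.1 ± 1.61% with DMSO in ABC-1, 33.2 ± 0.592% and 39.1 ± 1.47% in H2023, and 38.7 ± 1.28% and 37.7 ± 0.322% in H460. E2F6 alone then held 29.8 ± 1.39% of the sum with CCS1477 and 15.0 ± 0.532% with DMSO in ABC-1.

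**Figure D4:**
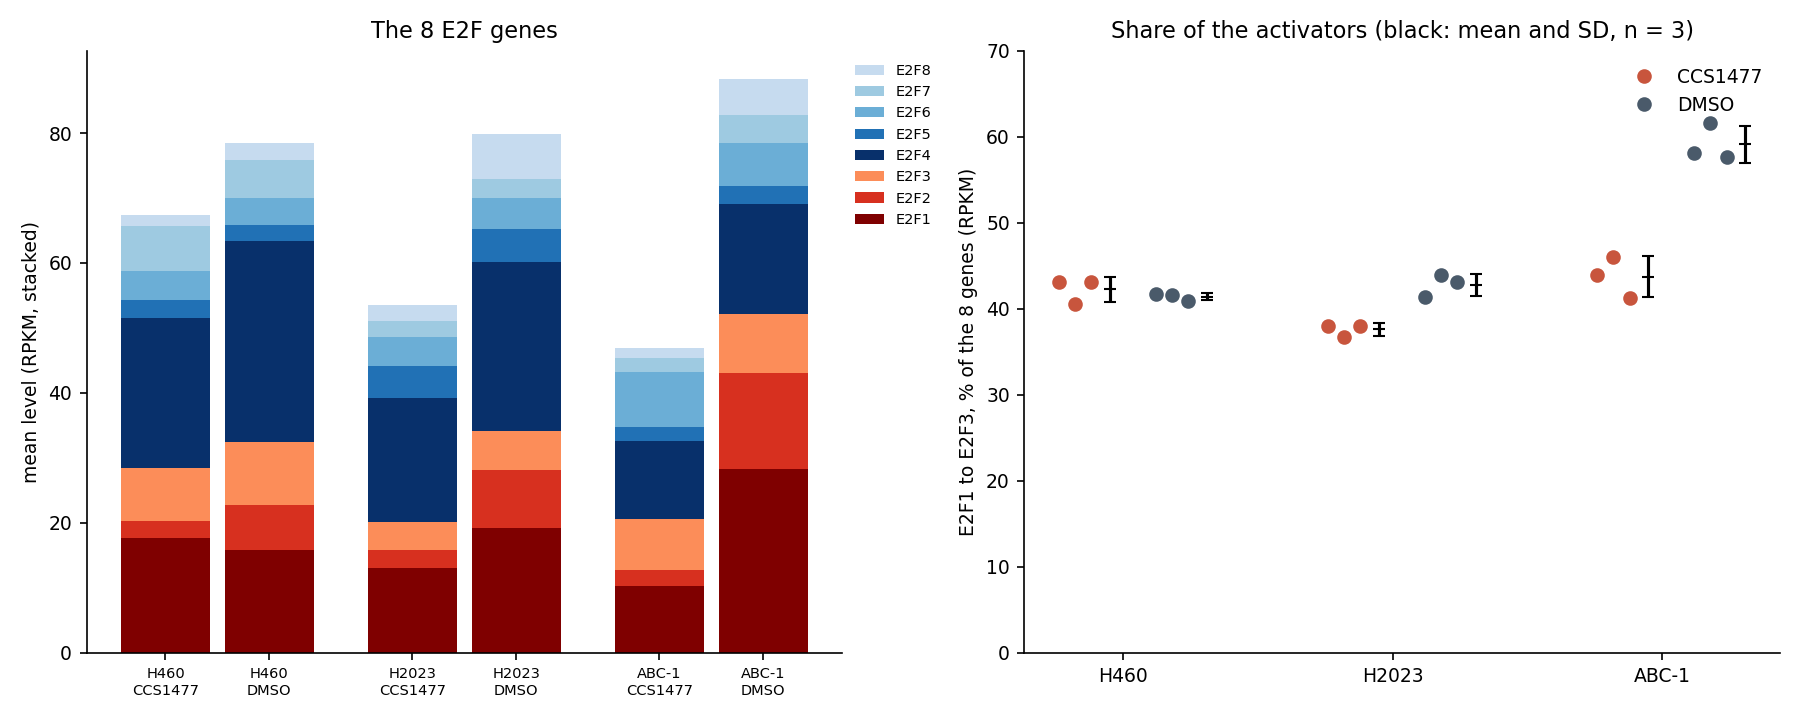
Left, mean RPKM of the 8 E2F genes stacked by gene (reds, activators; blues, repressors) with CCS1477 and DMSO in each line; right, the share of E2F1, E2F2 and E2F3 in each library, with mean and SD of 3. ABC-1 with DMSO stands above all other groups at 59.1%, and with CCS1477 it stands at 43.7%.

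The order of the genes by RPKM changed in ABC-1. TFDP1, E2F4 and E2F1 led in that order in both groups of H460 and H2023 and in ABC-1 with CCS1477, with no overlap between neighbours. This order rests on gene rows, which leave out 45.8 to 52.9% of the reads of E2F6. With transcript rows added, a setting chosen after seeing the data, E2F6 led in ABC-1 with CCS1477 at 17.0 ± 0.239 RPKM, ahead of TFDP1 at 14.6 ± 0.202, and was in place 5 there with DMSO at 14.8 ± 0.716. It was then in place 7 with CCS1477 and 6 with DMSO in H460, and in place 4 with both in H2023, while TFDP1, E2F4 and E2F1 led those lines as before. In this setting E2F6 overlapped its neighbour E2F7 in H460 with CCS1477, and its neighbour E2F2 in H2023 and ABC-1 with DMSO. On gene rows in ABC-1 with DMSO the order was E2F1 at 28.4 ± 0.480, TFDP1 at 24.2 ± 0.719, E2F4 at 16.9 ± 1.13 and E2F2 at 14.8 ± 0.444 RPKM, again without overlap. With CCS1477 in that line TFDP1 was at 13.9 ± 0.216, E2F4 at 12.1 ± 0.495 and E2F1 at 10.3 ± 1.05 RPKM, and E2F2 was in place 7 at 2.36 ± 0.205 RPKM, where it overlapped E2F7. E2F2 moved to place 9 with CCS1477, against 6 with DMSO, in H460 and to place 8, against 4, in H2023. The lowest places were held with CCS1477 by E2F8 in each line, at 1.65 ± 0.161, 2.40 ± 0.206 and 1.63 ± 0.164 RPKM, and with DMSO by E2F5 in H460 and ABC-1 and by E2F7 in H2023. E2F8 overlapped its neighbour E2F7 in H2023 with CCS1477. Other neighbours that overlapped were E2F5 and E2F2 in H460 with CCS1477, E2F3 and RBL1 in H460 with DMSO, RBL1 and E2F8 as well as E2F5 and E2F6 in H2023 with DMSO, and E2F5, RBL1, E2F6 and E2F3 in a row, then E2F2 and E2F7, in H2023 with CCS1477. In ABC-1 they were E2F6 and E2F3, and E2F7 and E2F5, with CCS1477, and E2F6, E2F8 and RBL1 with DMSO.

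The responses of the lines were then compared with each other in one limma-trend fit over the 18 libraries, on the 11757 genes tested in all 3 lines. Between H460 and ABC-1, 7 of the 10 genes differed in their change, where 50.6% of all genes did. E2F1 had the widest gap, with a change higher in H460 by 1.60 ± 0.09 on the log2 scale (adjusted p = 1.43e-10), followed by E2F7 (1.20 ± 0.10, adjusted p = 2.25e-08) and E2F2 (1.18 ± 0.13, adjusted p = 6.20e-07). Between H2023 and ABC-1, 6 genes differed, where 44.8% of all genes did. The change was higher in H2023 for E2F2 (0.96 ± 0.13), E2F1 (0.91 ± 0.09), E2F7 (0.68 ± 0.10), TFDP1 (0.59 ± 0.05) and E2F5 (0.41 ± 0.10), and lower in H2023 for E2F3 (−0.28 ± 0.08, adjusted p = 0.0122). Between H460 and H2023, 4 genes differed, where 30.3% of all genes did. These were E2F8 (0.75 ± 0.13), E2F1 (0.70 ± 0.09), E2F7 (0.52 ± 0.10) and RBL1 (0.30 ± 0.09, adjusted p = 0.0239). The RBL1 difference was lost without H460 DMSO replicate 1, H460 CCS1477 replicate 2, H2023 DMSO replicate 2 or H2023 CCS1477 replicate 3 (adjusted p = 0.0545 to 0.0703). In all, 8 of the 10 genes differed in at least 1 of the 3 comparisons, where 64.9% of all genes did. These counts rest on gene rows. With transcript rows added, E2F6 differed as well, for H460 minus ABC-1 (−0.37, adjusted p = 6.17e-04) and H2023 minus ABC-1 (−0.31, adjusted p = 0.00317). On gene rows it passed for H2023 minus ABC-1 without H2023 CCS1477 replicate 2 (−0.61, adjusted p = 0.0335) or ABC-1 DMSO replicate 1 (−0.61, adjusted p = 0.0359). The 3 differences share libraries, and each line's own values stand above. E2F4 missed the threshold in all 3 comparisons, with 95% intervals of −0.09 to 0.20 for H460 minus ABC-1, −0.10 to 0.19 for H2023 minus ABC-1 and −0.13 to 0.15 for H460 minus H2023.

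The other genes of the pathway were taken from 9 lists with 130 genes. Over all lists, 58 genes fell and 20 rose of 116 tested in H460, 82 fell and 17 rose of 119 in H2023, and 99 fell and 11 rose of 119 in ABC-1. Over all genes tested, 27.9% fell and 28.2% rose in H460, 31.9% and 28.6% in H2023, and 32.6% and 33.5% in ABC-1, and the counts of each list are to be read against these shares. Without CCS1477 replicate 1, 62 fell and 22 rose in H460. The 17 that rose in H2023 were 10 or 11 without DMSO replicate 1 (11), DMSO replicate 3 (10), CCS1477 replicate 1 (11) or CCS1477 replicate 2 (10).

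Of the pocket and DP genes outside the 10, 1 fell and 1 rose of 3 tested in H460, 3 rose of 4 in H2023 and 0 passed of 3 in ABC-1. RB1, the retinoblastoma gene, rose in H460 (log2 change 0.21 ± 0.04, adjusted p = 0.00421) and in H2023 (0.16 ± 0.05, adjusted p = 0.0149). In ABC-1 it was at 0.08 ± 0.04 (adjusted p = 0.109). RBL2, whose product holds E2F4 and E2F5 in quiescent cells, rose in H2023 (0.13 ± 0.05) and was at 0.03 in H460 and −0.06 in ABC-1. TFDP2, the second DP gene, fell in H460 (−0.16 ± 0.06) and rose in H2023 (0.11 ± 0.04). In ABC-1 it was at −0.09 ± 0.05 (adjusted p = 0.107). TFDP3, another DP gene, passed the filter in H2023, where it averaged 1.66 ± 0.107 CPM with CCS1477 and 1.08 ± 0.211 CPM with DMSO (0.50 ± 0.22, adjusted p = 0.07004). Of the 3 pocket protein genes, RBL1 fell in each line.

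Of the G1 cyclins, kinases and inhibitors that set the state of the pocket proteins, 7 fell and 4 rose of 14 tested in H460, 9 fell and 3 rose of 15 in H2023, and 10 fell and 4 rose of 16 in ABC-1 (medians −0.18, −0.38 and −0.59). CDKN1A, which encodes the CDK inhibitor p21, rose in all lines, to 108 ± 11.9 CPM with CCS1477 against 56.5 ± 1.38 CPM with DMSO in H460 (0.85 ± 0.07), to 93.7 ± 0.345 against 37.0 ± 0.341 CPM in H2023 (1.28 ± 0.04) and to 104 ± 1.74 against 19.8 ± 2.04 CPM in ABC-1 (2.32 ± 0.06). The kinase gene CDK2, partner of cyclin E, fell by 0.19 ± 0.05 in H460, by 0.67 ± 0.05 in H2023 and by 1.54 ± 0.05 in ABC-1 on the log2 scale. CDK6, which phosphorylates the pocket proteins with cyclin D, fell in H460 (−0.68 ± 0.05) and H2023 (−0.67 ± 0.04) and rose in ABC-1 (0.82 ± 0.04).

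The MuvB complex, which joins RBL1 or RBL2 and E2F4 to repress and MYBL2 and FOXM1 to activate, was followed by 8 genes, its core with MYBL1, MYBL2 and FOXM1. In H460, 4 fell and 2 rose, in H2023 6 fell and 1 rose, and in ABC-1 6 fell and 1 rose (medians −0.22, −0.55 and −1.002). FOXM1, an activator of mitotic genes, had 119 ± 4.18 CPM with CCS1477 and 131 ± 3.68 CPM with DMSO in H460, 170 ± 9.75 and 242 ± 2.68 CPM in H2023, and 66.0 ± 2.50 and 154 ± 3.67 CPM in ABC-1. It fell in each line (−0.21, −0.56 and −1.28). RBBP4, the histone-binding subunit, fell by 0.42, 0.86 and 0.99 on the log2 scale in H460, H2023 and ABC-1. MYBL1, a paralogue of MYBL2, rose in H460 (0.69 ± 0.06) and ABC-1 (0.54 ± 0.11) and was at −0.15 ± 0.06 in H2023 (adjusted p = 0.0530).

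G1/S target genes of E2F fell in 26 of 44 in H460, with 4 that rose, in 40 of 44 in H2023, with 1 that rose, and in 44 of 44 in ABC-1. Their medians were −0.20, −0.68 and −1.23. MCM5 and MCM2, subunits of the replicative helicase, stood at 35.9 ± 1.25 and 72.3 ± 5.51 CPM with CCS1477 in ABC-1, against 139 ± 1.72 and 228 ± 6.89 CPM with DMSO (log2 changes −2.00 ± 0.04 and −1.72 ± 0.05). ORC1, a subunit of the origin recognition complex, fell to 40.7 ± 0.814 CPM with CCS1477 against 57.8 ± 2.08 CPM with DMSO in H460 (−0.58 ± 0.05) and to 29.1 ± 1.53 against 75.1 ± 0.354 CPM in H2023 (−1.42 ± 0.05). MCM5 and MCM2 also fell in H460 (−0.61 and −0.41) and H2023 (−1.21 and −1.10), and ORC1 fell in ABC-1 (−1.40). The log2 change, with its sign, was lower in ABC-1 than in H460 for 43 of the 44 genes, where it was so for 26.6% of all genes, and lower in ABC-1 than in H2023 for 36 genes, against 21.2% of all genes. The median differences were 0.95 and 0.50 on the log2 scale. It was lower in H2023 than in H460 for 38 genes, against 18.4% of all genes (median difference 0.48). A lower change is not always a larger one. The thymidine kinase gene TK1, named after its values were seen, rose in H460 (0.45 ± 0.08), was at 0.05 in H2023 and fell in ABC-1 (−0.48 ± 0.05). No gene of the list had a difference past the threshold in the other direction in any of the 3 comparisons.

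G2/M target genes of the MuvB complexes fell in 14 of 25 in H460, with 3 that rose, in 21 in H2023, with 1 that rose, and in 25 of 25 in ABC-1 (medians −0.15, −0.46 and −1.62). AURKA, a kinase of the mitotic spindle, had 87.1 ± 5.15 CPM with CCS1477 against 148 ± 5.39 CPM with DMSO in H460 (−0.84 ± 0.05), 53.3 ± 1.40 against 115 ± 3.15 CPM in H2023 (−1.16 ± 0.04) and 27.7 ± 1.64 against 104 ± 4.76 CPM in ABC-1 (−1.96 ± 0.06). BUB1, a spindle checkpoint kinase, rose in H460 (0.42 ± 0.04) and H2023 (0.13 ± 0.05) and fell in ABC-1 (−1.68 ± 0.05). The log2 change, with its sign, was lower in ABC-1 than in H460 and in H2023 for all 25 genes, by tests of the difference. Over all genes this held for 26.6% against H460 and 21.2% against H2023.

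**Figure D5:**
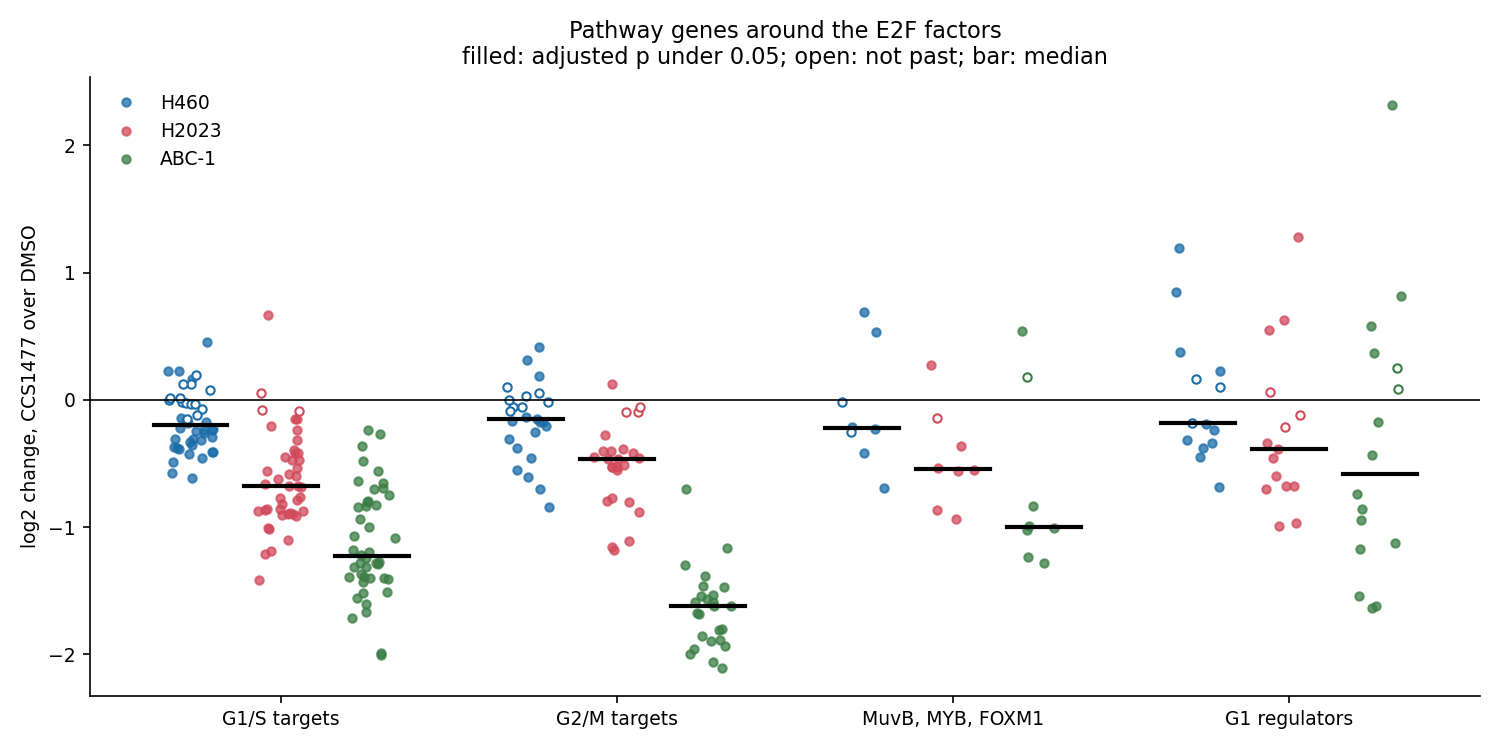
Log2 change with CCS1477 over DMSO (y axis) of the tested genes of 4 lists in each line; filled points have an adjusted p under 0.05 and bars are medians. The medians of the G1/S and G2/M targets run from −0.20 and −0.15 in H460 to −1.23 and −1.62 in ABC-1.

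Partners of E2F6 in PRC1.6 were mixed, with 4 that fell and 2 that rose of 12 in H460, 4 and 1 in H2023, and 7 and 3 in ABC-1. In H460 and H2023 the falls stood near the shares over all genes (27.9% and 31.9%). PCGF6, a defining subunit, fell in each line (−0.48, −0.62 and −0.53), and RING1, a ubiquitin ligase subunit, rose in each line (0.34, 0.55 and 0.81). Of a list of 9 genes meant as germline genes that E2F6 silences in mouse cells, 1 or 2 passed the filter in a line. TUBB3 was in that list but is a neuronal tubulin gene, so its values do not stand for silenced germline genes. It rose to 534 ± 81.0 CPM with CCS1477 against 179 ± 6.20 CPM with DMSO in H460 (1.49 ± 0.09), to 351 ± 12.1 against 146 ± 2.91 CPM in H2023 (1.21 ± 0.04) and to 190 ± 2.97 against 21.5 ± 0.228 CPM in ABC-1 (3.07 ± 0.04). SMC1B, a meiotic cohesin gene, was tested in H2023, where it fell (−0.60 ± 0.17, adjusted p = 0.0111).

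Apoptosis genes reported as E2F1 targets moved in both directions in H460 and ABC-1 and in 1 direction in H2023. In H460, 2 rose and 2 fell of 6, in H2023 6 of 6 rose, and in ABC-1 2 rose and 4 fell of 7 (medians −0.13, 0.41 and −0.22). APAF1, the scaffold of the apoptosome, rose in each line (0.52, 0.36 and 0.56), as did BCL2L11, which encodes the death-promoting protein BIM (0.79, 0.92 and 0.31). BBC3, which encodes PUMA, rose in H2023 (1.45 ± 0.19, adjusted p = 6.38e-05) and was at −0.11 in H460 and −0.22 in ABC-1. CCNF, the cyclin F subunit of a ubiquitin ligase that marks E2F proteins for degradation, rose to 86.4 ± 4.87 CPM with CCS1477 against 51.5 ± 2.02 CPM with DMSO in H460 (0.67 ± 0.05, adjusted p = 2.52e-05). It fell to 34.7 ± 1.71 against 69.6 ± 5.93 CPM in ABC-1 (−1.05 ± 0.07, adjusted p = 1.88e-07) and its change in H2023 was −0.12 ± 0.08 (adjusted p = 0.201). FBXO5, which encodes EMI1, an inhibitor of the anaphase-promoting complex, fell in H2023 (−0.63 ± 0.06) and ABC-1 (−0.95 ± 0.07) and was at −0.14 ± 0.05 in H460 (adjusted p = 0.0545). FZR1, which encodes the CDH1 activator of that complex, fell in ABC-1 (−0.40 ± 0.05) and was at 0.14 ± 0.11 in H460 and −0.13 ± 0.07 in H2023 (adjusted p = 0.299 and 0.135).

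For each of the 10 genes, the 3 genes with the most alike pattern were found by Pearson's r over the 18 libraries, on deposited log2 values centred on the mean of their line. Genes with clone, LINC, antisense or small RNA names were left out, and each of the 10 was compared with 10926 genes. The libraries fall into 6 groups, so r mostly follows the changes with CCS1477, and it is given as a description. E2F1 was most like UNG, a uracil-removing repair enzyme gene (r = 0.994), CDC20, an activator of the anaphase-promoting complex (0.993), and ASF1B, a histone chaperone gene (0.989). All 3 had small changes in H460 (0.10, 0.03 and 0.12) and falls in ABC-1 (−0.96, −1.53 and −1.66). E2F8 was most like ECT2 (0.993), DIO2 (0.991) and ORC1 (0.991), and E2F7 most like MDM2 (0.982), MKI67 (0.981) and ZNF850 (0.980). TFDP1 was most like SMC2 (0.993), PLK1 (0.992) and CDK4 (0.991), and RBL1 like SRSF10, NUP205 and ATL3 (0.986 each). E2F2 was most like NUP62 (0.995), SCARA3 (0.994) and CAPN2 (0.994), E2F3 like ZMPSTE24 (0.968), ALG14 (0.965) and TPM4 (0.963), and E2F4 like PRMT5, PPRC1 (0.985 each) and HDAC7 (0.983). E2F5 reached 0.928 with RPA3, and E2F6 no more than 0.736, with UBE3D.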

How the data were processed

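Total RNA was made into directional libraries and sequenced in read pairs on a DNBSEQ instrument, per the labels. The build is GRCh38, per the submitters' processing notes, with the aligner, counting program and use of strand not given in the sources used here. The authors deposited log2 values in 1 table per line, whose columns bear the same names, so the line was taken from the name of the table. The values are log2 of whole reads times 1 factor per library, plus 4, and all values of up to 1000 reads came out whole within 0.1 once this was undone. Gene rows were used, and transcript rows (9.19 to 10.7% of reads) in an alternative. Coordinates and exon lengths came from GENCODE 29.

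Genes with at least 1 CPM in 3 of the 6 libraries of a line were tested with limma-trend (limma 3.58.1, R 4.3.3) on the deposited log2 values, in two-sided tests at an adjusted p under 0.05 (Benjamini-Hochberg). The design had planned count tests where counts were found, and these were not used. Errors of log2 changes are SE and intervals 95% intervals of the fit. The fits were run on simulated reads with the same spread setting for all genes and libraries. No outlying library, such as CCS1477 replicate 1 of H460, was simulated. All 10 genes are named. The rule allowed naming up to 4 genes per list and line by smallest p, any gene of lists of up to 5, the 3 most alike genes and overlapping genes. A few list genes are given in further lines too. The members, lists and rules were chosen with earlier results of these data known. Alternatives were other scalings, filters, constants and fits, transcript rows, a replicate block and each library left out in turn.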

Additional observations from a re-analysis of the deposited data

Results flagged for a closer look

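The changes of 8 of the 10 genes differed between at least 1 pair of lines by the test of the difference itself (limma-trend over 18 libraries, adjusted p under 0.05). Of the 11757 genes tested, 64.9% did so. For H460 minus ABC-1 the differences in log2 change were 1.60 for E2F1, 1.20 for E2F7, 1.18 for E2F2, 0.99 for E2F8, 0.67 for TFDP1, 0.53 for E2F5 and 0.46 for RBL1. For H2023 minus ABC-1 they were 0.96 for E2F2, 0.91 for E2F1, 0.68 for E2F7, 0.59 for TFDP1, 0.41 for E2F5 and −0.28 for E2F3. For H460 minus H2023 they were 0.75 for E2F8, 0.70 for E2F1, 0.52 for E2F7 and 0.30 for RBL1. All of these rest on gene rows. With transcript rows added, E2F6 also differed for H460 minus ABC-1 (−0.37) and for H2023 minus ABC-1 (−0.31). The DMSO level also differed between the lines, and its part in these differences was not tested. Groups of 3 libraries are too small for a test of single outlying libraries.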

How the results depend on the processing

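Over all alternatives, 460 of 480 log2 changes of the 10 genes, 610 of 630 differences between lines and 280 of 303 counts and medians kept their direction and side of the threshold or stayed near their main value. The count of the 10 genes that rose in H460, 1, was 2 with scaling by library totals, and 0 with scaling by relative log expression, limma-voom or no filter. That in ABC-1, 0, was 1 (E2F6) with library totals, 1 CPM in all libraries, the replicate block or transcript rows added. Leaving out 1 library gave 0 to 1 in both lines. It gave 10 to 16 pathway genes that rose in H2023, against 17. The activator minus repressor median was −0.10 in H460 and −0.18 in H2023 with transcript rows added, and −0.39 to −0.21 and −0.34 to −0.19 with 1 library left out. Signs reversed for E2F6 in H460 with transcript rows added (−0.23) and, without single libraries (−0.17 to 0.12), without DMSO replicate 2 and without CCS1477 replicate 2, and for E2F5 in H2023 with library totals (0.00139). The H460 minus H2023 difference of E2F4 reversed with relative log expression (−0.00598), limma-voom (−0.00693), transcript rows added (−0.022) and without single libraries (−0.018 to 0.059), and that of E2F6 with transcript rows added (−0.059). In that last setting the differences of E2F6 for H460 minus ABC-1 (−0.37) and H2023 minus ABC-1 (−0.31) passed the threshold. With transcript rows added, chosen after seeing the data, 12 of 18 shares of summed RPKM moved by more than 1 SD. Where no cause is given, the cause was not tested.

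Same-numbered CCS1477 and DMSO libraries deviated together with correlations of 0.0106, 0.0973 and 0.0483 in H460, 0.0340, 0.0440 and 0.0377 in H2023 and −0.104, −0.0433 and −0.0709 in ABC-1, so the numbers were not taken as pairs. With the replicate block, 6, 8 and 9 of the 10 genes fell in H460, H2023 and ABC-1, and E2F6 rose in ABC-1 (0.31, adjusted p = 0.00436). The H460 minus H2023 difference of E2F3 passed with the block (0.21, adjusted p = 0.0464). Depth limits the lowest gene, E2F8, which rested on 339 to 657 reads over 3 CCS1477 libraries.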
